A study of Mus musculus with 9 samples.

Results

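The 9 genes described here encode receptor subunits of the interleukin-6 (IL-6) cytokine family and parts of its intracellular pathway: the receptors Il6ra, Osmr, Cntfr, Lifr and Il6st, the kinase Jak2, the transcription factor Stat3, and the inhibitors Socs3 and Socs2. They were found by Ensembl gene identifier in a table of 48526 genes, and all 9 passed the filter on low counts that left 18858 genes for testing. The set was selected on its pathway with the log2 fold changes of these genes at 1 h and 6 h already known, among them the fall of Il6ra at 6 h, and with no threshold, so the values below describe where these genes stood. The cells were neural stem cells (NSCs) from the subependymal zone (SEZ) of adult C57BL/6 mice, grown as neurospheres. Differentiation was induced on an adhesive substrate in medium with FGF but without EGF. The paper states that cells fixed at early times were seeded in medium with both factors before treatment. It does not say whether this held for the cells used for RNA-seq. RNA-seq was done at 0 h, before EGF withdrawal, and at 1 h and 6 h, with 3 replicates per time point and 9 libraries. All libraries have the same strain and treatment in the labels and differ in time only, and the labels do not state whether libraries with the same replicate number came from the same culture or animal.

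Cytokines of the IL-6 family act through receptor complexes that contain the common signalling chain gp130, the product of Il6st. IL-6 binds first to its own alpha chain (Il6ra), CNTF to CNTFR (Cntfr), and LIF and oncostatin M signal through a second signalling chain, LIFR (Lifr) or OSMR (Osmr), paired with gp130. The chains carry JAK kinases, which phosphorylate STAT3, and STAT3 switches on Socs3, whose protein binds gp130 and JAKs and shuts the signal off. In the nervous system LIF and CNTF are known to act on NSC maintenance and on the formation of astrocytes.

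The promoters of 3 genes that were lower at 6 h are shown because the pathway ends in a transcription factor that binds TTCNNNGAA, the palindromic site of activated STAT dimers. Windows from 250 bases before to 50 bases after the RefSeq gene start (GRCm38.p6) were at hand for 8 of the 9 genes, all but Socs2. TTCNNNGAA was searched on both strands, as was the AP-1 site TGANTCA, which has no overlap with the former here. Of 27025 genes, counted with 1 window each, 8.47% held TTCNNNGAA and 7.93% held TGANTCA. Among the 8 genes, TTCNNNGAA was found in Socs3 only, where its first base lay 154 bases before the start, and TGANTCA in Osmr only, from base 4 of the transcript. No window of Il6ra, Il6st, Lifr, Cntfr, Stat3 or Jak2 held either, which says only that these letters are not in these windows. The windows of Socs3 and Osmr lie inside these genes as annotated in GENCODE M21. There the genes begin further upstream, at 117970047 for Socs3 and 6874969 for Osmr. The 280 bases that end 30 bases after the RefSeq start are printed 5′ to 3′, with the match in capitals.
Socs3, chr11:117969337-117969616, minus strand: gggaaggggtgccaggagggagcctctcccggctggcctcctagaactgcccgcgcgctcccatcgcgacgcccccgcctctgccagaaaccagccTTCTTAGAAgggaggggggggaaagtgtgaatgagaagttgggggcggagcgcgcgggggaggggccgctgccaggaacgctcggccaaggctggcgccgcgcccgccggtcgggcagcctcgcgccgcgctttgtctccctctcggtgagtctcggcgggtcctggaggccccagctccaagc
Osmr, chr15:6874284-6874563, minus strand: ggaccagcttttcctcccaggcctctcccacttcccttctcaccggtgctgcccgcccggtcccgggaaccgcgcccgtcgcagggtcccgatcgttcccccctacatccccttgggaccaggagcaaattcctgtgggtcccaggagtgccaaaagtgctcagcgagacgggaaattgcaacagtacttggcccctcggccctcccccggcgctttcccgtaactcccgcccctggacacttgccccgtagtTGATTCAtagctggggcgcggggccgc
Il6ra, chr3:89913167-89913446, minus strand: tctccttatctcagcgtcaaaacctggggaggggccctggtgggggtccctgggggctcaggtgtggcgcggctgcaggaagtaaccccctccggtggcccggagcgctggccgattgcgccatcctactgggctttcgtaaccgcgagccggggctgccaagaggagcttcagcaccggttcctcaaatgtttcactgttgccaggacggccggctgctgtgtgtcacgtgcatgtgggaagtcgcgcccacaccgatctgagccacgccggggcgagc

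The genes lie on 7 chromosomes. Osmr (chromosome 15, 6813577 to 6874969) and Lifr (chromosome 15, 7090614 to 7197489), the paired chains for oncostatin M and LIF, are separated by 215644 bases on opposite strands, and Socs3 and Stat3 are both on chromosome 11, 17026538 bases apart. An exon of Il6ra (chromosome 3, 89864059 to 89913196) overlaps the antisense gene Gm42809, which had at most 3 counts in any library. Stat3 (chromosome 11, 100885098 to 100939540) overlaps its neighbour Stat5a on the other strand, whose counts were between 83 and 329 against at least 12410 for Stat3. The strand setting of the counting is not given in the sources used here, so reads from such overlaps may not be told apart.

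The total count per library was between 65871454 and 105592597. Levels are given as CPM (counts divided by the library size and set to a common scale) with library sizes scaled by the TMM method, and, between genes, as CPM per kilobase (kb) of exon. The exon length of a gene was merged over all its annotated transcripts and may exceed that of the transcripts present. Libraries with the same replicate number deviated together, and differences were therefore tested in edgeR with this number as a block. For each call the adjusted p of the fit without the block is given as well, because most calls depended on it. The NSC markers Nes, Sox2, Fabp7, Vim, Egfr, Prom1 and Slc1a3 were all above a mean of 1 CPM. Microglial markers summed to between 0.122 and 0.57 CPM, and Itgam and C1qa had no count in any library.

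Per length, the signalling chain and the kinase and STAT were abundant and the ligand-specific chains for IL-6 and oncostatin M were scarce. At 0 h the order was Stat3 (25.1 ± 4.09 CPM per kb, SD, n = 3), Jak2 (22.7 ± 3.41), Il6st (13.7 ± 0.453), Cntfr (9.58 ± 1.24), Lifr (5.41 ± 0.648), Socs3 (3.24 ± 0.348), Il6ra (0.541 ± 0.115), Socs2 (0.516 ± 0.27) and Osmr (0.378 ± 0.269). The ranges of Stat3 and Jak2 overlapped, as did those of Il6ra and Socs2 and those of Socs2 and Osmr, whereas each of the other neighbours in this order was apart in all 3 libraries. At 6 h Jak2 (22.0 ± 2.79 CPM per kb) stood above Stat3 (18.6 ± 2.06) with overlapping ranges, and Il6ra (0.106 ± 0.0167) was the last, overlapping Osmr (0.136 ± 0.0636).

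**Figure D1:**
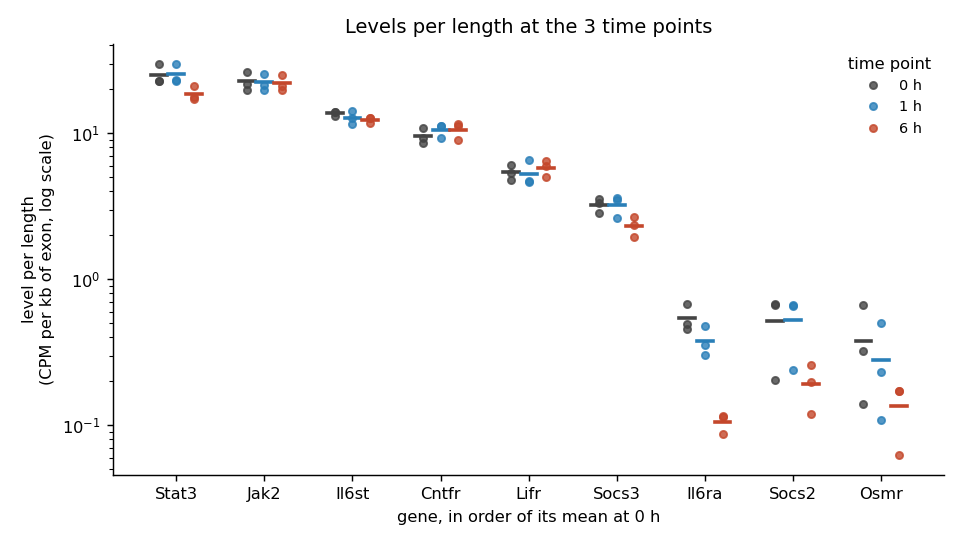
Level of each gene per length, in CPM per kb of exon on a log scale, with 1 point per library (3 per time point) and a line at the mean, and genes in the order of their mean at 0 h. Il6ra, Socs2 and Osmr lie below 1 CPM per kb at every time point and all other genes above it, and the mean of Il6ra moves from 0.541 at 0 h to 0.106 at 6 h.

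At 1 h after EGF withdrawal, Il6ra alone among the 9 genes passed the threshold (adjusted p under 0.05), and it was lower. Over all tested genes 2.14% were called lower and 1.36% higher in that comparison. At 6 h against 0 h, 5 of the 9 genes were lower (Il6ra, Osmr, Stat3, Socs3 and Socs2) and 0 were higher, where 17.5% of all tested genes were called lower and 17.4% higher. The same 5 genes were lower at 6 h against 1 h, where 17.5% of all tested genes were called lower and 18% higher. Because these contrasts were known when the genes were chosen, nothing was read from these counts. The median log2 fold change of the 9 genes was -0.42 at 6 h against 0 h, and that of all tested genes was -0.0001. Without the block, Il6ra was the only one of the 9 called, at 6 h against 0 h (0.955% of all tested genes lower) and at 6 h against 1 h (0.663% lower), and none was called at 1 h, where that fit called 8 genes (0.0424%) in the whole table, all higher. The 3 comparisons share libraries and are not independent of each other.

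**Figure D2:**
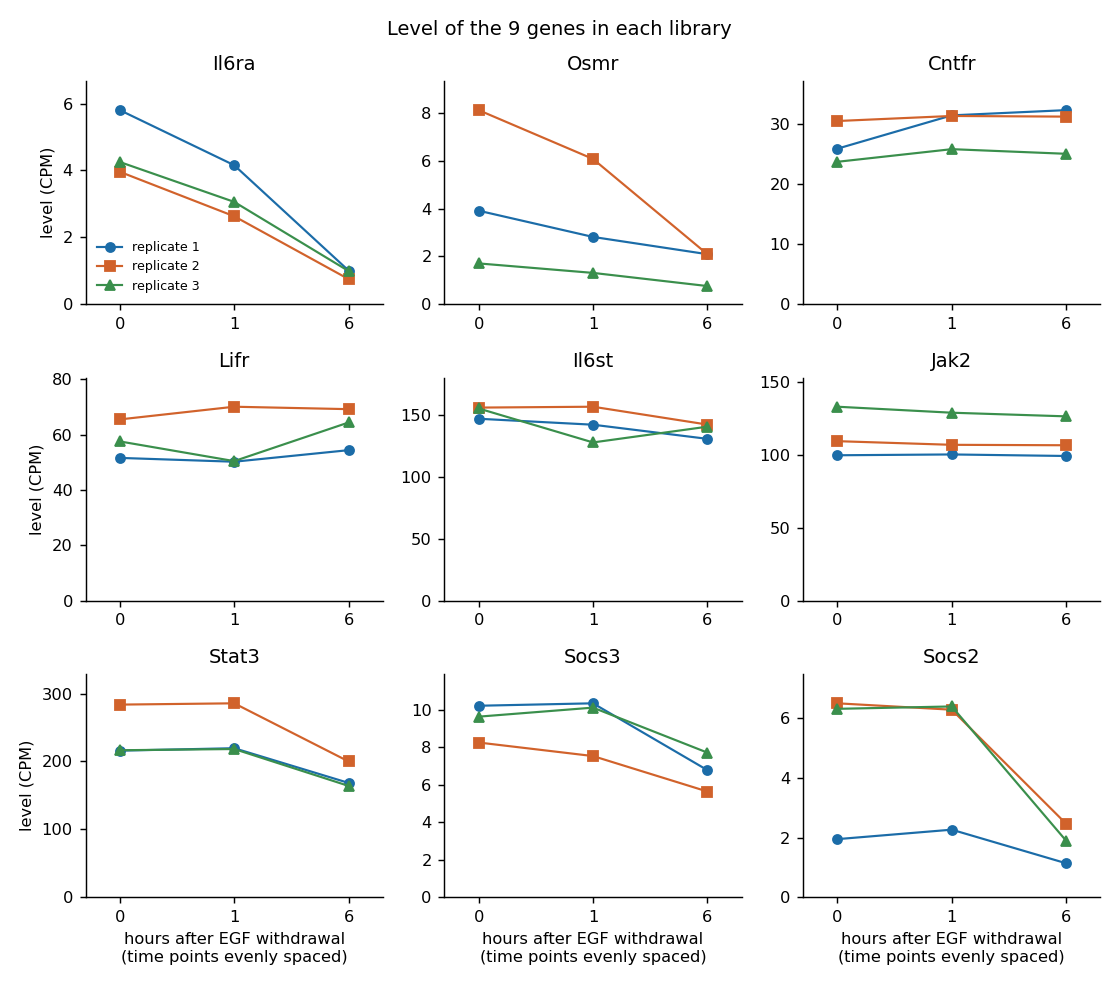
Level of each of the 9 genes in CPM on an axis from 0, at 0, 1 and 6 h, with 1 line per replicate number. Il6ra falls in all 3 lines at both steps, Stat3, Socs3 and Socs2 are at their lowest at 6 h in all 3 lines, and the lines of Osmr and Socs2 differ more from each other at 0 h than those of the other genes.

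Il6ra, the chain that binds IL-6, showed the largest difference of the set. It had 5.81, 3.96 and 4.25 CPM in replicates 1, 2 and 3 at 0 h, 4.16, 2.63 and 3.06 CPM at 1 h and 1.00, 0.748 and 0.99 CPM at 6 h. The 6 h libraries were all below those of both other time points, and the 1 h libraries overlapped those at 0 h although each was below the 0 h library of its own number. In bulk RNA, fewer cells with a transcript and less of it per cell cannot be told apart, here and in all that follows. The log2 fold change at 1 h was -0.52 ± 0.11 (SE; adjusted p = 0.0218 with the block in edgeR, 1.0 without it), with log2 ratios of -0.48, -0.59 and -0.48 in replicates 1, 2 and 3. That call was lost when any 1 of the 6 libraries at 0 h or 1 h was left out (adjusted p up to 0.163), while the log2 fold change stayed between -0.58 and -0.48.

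At 6 h against 0 h Il6ra was 5.04-fold lower (log2 fold change -2.33 ± 0.126, adjusted p = 6.03e-08 with the block and 0.00714 without it). Against 1 h it was 3.53-fold lower (log2 fold change -1.82 ± 0.128, adjusted p = 6.08e-07 and 0.014). Both calls held in edgeR and DESeq2 with and without the block, and in edgeR when any 1 library was left out. Ordered from the largest fall at 6 h against 0 h, Il6ra stood at place 12 of 18858 tested genes, and at place 3 of the 13606 with a mean of at least 1 CPM. Its mean at 6 h was 0.914 CPM, so it met that floor through its 0 h and 1 h levels. The fall was known when Il6ra was chosen, so these places are description only. Its counts per library were between 293 and 420 at 0 h and between 68 and 106 at 6 h.

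Osmr, the oncostatin M receptor chain, had 3.91, 8.12 and 1.70 CPM in replicates 1, 2 and 3 at 0 h, 2.81, 6.08 and 1.31 CPM at 1 h and 2.09, 2.09 and 0.756 CPM at 6 h. Replicate 2 was the highest and replicate 3 the lowest at 0 h and 1 h, with a 4.77-fold range at 0 h, and the groups overlapped although every number was lowest at 6 h. The log2 fold change at 6 h against 0 h was -1.38 ± 0.185, with an adjusted p of 9.81e-05 with the block and 0.33 without it. Its log2 ratios were -0.90, -1.96 and -1.17 in replicates 1, 2 and 3. Against 1 h it was -0.96 ± 0.189 (adjusted p = 0.00167 and 0.504), and at 1 h against 0 h -0.42 ± 0.174 (adjusted p = 0.221), with all 3 replicates below 0. This 1 h difference passed the threshold in 2 of the alternative fits, without the filter on low counts and with only the 6 libraries compared.

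The chains shared between ligands, or binding LIF and CNTF, did not pass the threshold in any of the 3 comparisons. Il6st, the common chain gp130, had 146.7, 155.7 and 155.0 CPM at 0 h, 141.9, 156.4 and 127.6 CPM at 1 h and 130.5, 142.0 and 140.3 CPM at 6 h in replicates 1, 2 and 3. All 3 libraries at 6 h were below all 3 at 0 h, as for 12.1% of all tested genes, and the log2 fold change was -0.15 ± 0.0592 (adjusted p = 0.0695 with the block, 0.427 without). This difference passed the threshold when replicate 3 at 1 h or replicate 3 at 6 h was left out, with adjusted p = 0.00304 and 0.0387, and in 2 other alternative fits.

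Lifr, the LIF receptor chain, had 51.6, 65.6 and 57.6 CPM at 0 h, 50.3, 70.2 and 50.5 CPM at 1 h and 54.4, 69.3 and 64.5 CPM at 6 h. The groups overlapped, replicate 2 was the highest at each time point, and the log2 fold change at 6 h was 0.11 ± 0.0642 against 0 h (adjusted p = 0.22) and 0.15 ± 0.0643 against 1 h (adjusted p = 0.0925), which also passed in some of the alternative fits. Cntfr, the chain for CNTF, had 25.8, 30.4 and 23.7 CPM at 0 h, 31.4, 31.3 and 25.8 CPM at 1 h and 32.3, 31.2 and 25.0 CPM at 6 h. Its groups overlapped as well, and its log2 fold change was 0.15 ± 0.0643 at 1 h (adjusted p = 0.254) and 0.14 ± 0.064 at 6 h (adjusted p = 0.103) against 0 h, with all 3 replicates above 0 each time.

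Set against the common chain within each library, the receptor chains had different courses. The level of Il6ra per length was 5.08%, 3.27% and 3.52% of that of Il6st at 0 h in replicates 1, 2 and 3, 3.76%, 2.16% and 3.08% at 1 h, and 0.989%, 0.677% and 0.906% at 6 h. Osmr stood at 2.74% ± 1.9 of Il6st (SD, n = 3) at 0 h and at 1.1% ± 0.531 at 6 h. Lifr stood at 39.3% ± 3.66 at 0 h and 46.8% ± 3.66 at 6 h, and Cntfr at 69.7% ± 8.56 and 85.7% ± 13.9. Thus the 6 h libraries held Il6ra at under 1% of Il6st per length in all 3 replicates, and Lifr and Cntfr at 43.0% or more. These percentages depend on the merged exon lengths, which were 2782 bases for Cntfr, 8642 for Il6ra and 11099 for Il6st. Without division by length, Cntfr had a mean of 26.6 CPM and Il6st one of 152.5 CPM at 0 h.

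**Figure D3:**
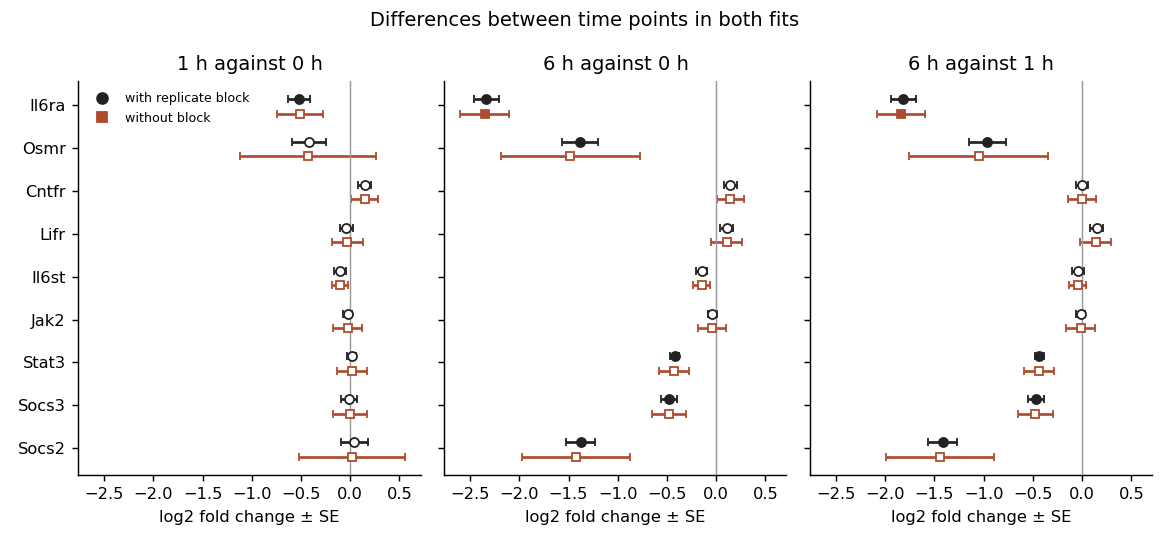
Log2 fold change ± SE of the 9 genes in the 3 comparisons, from edgeR with the replicate number as a block (black circles) and without it (red squares), 3 replicates per time point. Filled symbols have an adjusted p under 0.05. The values of both fits lie close to each other, the SEs are larger without the block, most of all for Osmr and Socs2, and only Il6ra has filled squares.

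Jak2, a kinase bound to gp130, was at nearly the same level in each replicate at all time points. It had 99.6, 109.3 and 132.9 CPM at 0 h, 100.2, 106.8 and 128.8 CPM at 1 h and 99.2, 106.5 and 126.3 CPM at 6 h in replicates 1, 2 and 3. The replicates kept their order at every time point and the groups overlapped. Its log2 fold change was -0.02 ± 0.0447 at 1 h (adjusted p = 0.825) and -0.04 ± 0.0447 at 6 h (adjusted p = 0.539) against 0 h, the smallest SEs of the 9 genes.

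Stat3, the transcription factor at the end of the pathway, had 215.9, 283.7 and 216.5 CPM at 0 h and 219.5, 285.6 and 218.3 CPM at 1 h. At 6 h it had 168.4, 200.0 and 164.0 CPM, and each of these libraries was below all 6 of the earlier ones. The log2 fold change at 1 h was 0.01 ± 0.0473 (adjusted p = 0.904). At 6 h against 0 h it was -0.42 ± 0.0474, or 1.34-fold lower, with an adjusted p of 2.52e-05 with the block and 0.183 without it, and at 6 h against 1 h -0.44 ± 0.0474 (adjusted p = 2.09e-05 and 0.175). Replicate 2 was the highest at each time point, and the ratio of 6 h to 0 h was 0.78, 0.705 and 0.758 in replicates 1, 2 and 3.

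Socs3, the inhibitor that STAT3 induces and the gene whose RefSeq window above holds TTCNNNGAA, had 10.2, 8.26 and 9.64 CPM at 0 h and 10.3, 7.54 and 10.1 CPM at 1 h. At 6 h it had 6.79, 5.64 and 7.72 CPM, all below the 0 h libraries, whereas the 6 h and 1 h libraries overlapped. Its log2 fold change was -0.01 ± 0.0811 at 1 h (adjusted p = 0.948) and -0.48 ± 0.082 at 6 h against 0 h, 1.40-fold lower (adjusted p = 0.00058 with the block, 0.194 without). Against 1 h it was -0.47 ± 0.0818 (adjusted p = 0.000753 and 0.203). Per length, Socs3 stood at 15.6%, 9.59% and 14.7% of Stat3 at 0 h and at 13.3%, 9.3% and 15.5% at 6 h, so that these groups overlapped.

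Socs2, a SOCS gene best known for restraining growth hormone signalling through STAT5, had 1.95, 6.50 and 6.32 CPM at 0 h and 2.27, 6.29 and 6.40 CPM at 1 h in replicates 1, 2 and 3. At 6 h it had 1.14, 2.46 and 1.90 CPM. Replicate 1 was the lowest at each time point, 3.33-fold under the highest at 0 h, and the groups overlapped because of it. The log2 fold change was 0.04 ± 0.136 at 1 h (adjusted p = 0.907). For 6 h against 0 h it was -1.37 ± 0.147, or 2.59-fold lower, with an adjusted p of 1.75e-05 with the block and 0.221 without it. The log2 ratios in replicates 1, 2 and 3 were -0.77, -1.40 and -1.74. Against 1 h the log2 fold change was -1.42 ± 0.147 (adjusted p = 1.5e-05 and 0.218). Both Socs2 and Osmr thus had a wide range among replicates at 0 h and a lower value at 6 h in each of the 3.

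In CPM, 7 of the 9 genes were lower in 3 of 3 replicates at 6 h against 0 h, which 31.7% of all tested genes were, and 4 (Il6ra, Il6st, Stat3 and Socs3) were lower with no overlap between the groups, as were 12.1% of all tested genes. The calls of Osmr, Stat3, Socs3 and Socs2 at 6 h against 0 h and against 1 h were kept when any 1 library was left out. Genes with a course most like that of Il6ra were sought among the 13606 with a mean of at least 1 CPM, by Pearson correlation of log2 CPM over the 9 libraries after the mean of each replicate number had been subtracted. The 3 most alike outside the set were Ing5 (r = 0.998), Ifi209 (r = 0.997) and Topors (r = 0.997). Ifi209 was at 4.01 ± 2.18 CPM at 0 h, 3.08 ± 1.7 at 1 h and 0.801 ± 0.387 at 6 h (SD, n = 3), close to Il6ra in level and course, while Ing5 went from 34.0 ± 10.7 to 20.9 ± 6.57 and Topors from 85.5 ± 3.95 to 68.0 ± 3.26 CPM between 0 h and 6 h. The libraries share their time points and replicate numbers, so these r values describe the course only.

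The other genes of the pathway were taken from a list of 59, of which 51 could be tested. At 1 h 3 were higher and 3 lower, at 6 h against 0 h 9 were higher and 18 lower, and at 6 h against 1 h 9 were higher and 15 lower. These are 5.88% in each direction at 1 h, where 1.36% of all tested genes were called higher and 2.14% lower. In the comparison of 6 h with 0 h they are 17.6% higher, near the 17.4% over all tested genes, and 35.3% lower, where 17.5% of all tested genes were called lower. In that of 6 h with 1 h they are 17.6% higher and 29.4% lower, beside 18% and 17.5% over all tested genes. Their median log2 fold change at 6 h against 0 h was -0.07. Without the block 0, 2 and 3 of them were called in these comparisons.

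Of 10 ligand genes 6 could be tested. Il6 had at most 4 counts in any library and Osm at most 3, so transcripts of the ligands of Il6ra and Osmr were at or near 0 at each time point. Lif had 10.1, 4.69 and 6.60 CPM at 0 h, 16.8, 6.05 and 9.43 CPM at 1 h and 8.13, 3.39 and 6.12 CPM at 6 h in replicates 1, 2 and 3. It was the only ligand called at 1 h, where it was higher in 3 of 3 replicates (log2 fold change 0.55 ± 0.0967, adjusted p = 0.007 with the block, 1.0 without), and at 6 h it was below 0 h (-0.28 ± 0.099, adjusted p = 0.0402 and 0.84).

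Clcf1, a ligand that signals through CNTFR, LIFR and gp130, had 23.9, 23.8 and 7.86 CPM at 0 h and 10.6, 10.8 and 4.04 CPM at 6 h. It was lower in 3 of 3 replicates (log2 fold change -1.10 ± 0.07, adjusted p = 2.31e-07 with the block, 0.365 without), with replicate 3 the lowest at both times. Ctf1, which encodes cardiotrophin 1, had 1.41, 1.08 and 1.06 CPM at 0 h and 2.53, 2.01 and 2.05 CPM at 6 h, without overlap (0.89 ± 0.139, adjusted p = 0.000314 and 0.053). Cntf (0.516 ± 0.117 CPM at 0 h) and Il11 (0.163 ± 0.0969) did not pass at any time.

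Among the other receptors Il11ra1, the alpha chain for IL-11 and the closest in role to Il6ra, rose at 6 h from 12.4 ± 2.25 to 16.1 ± 1.97 CPM (log2 fold change 0.38 ± 0.0801, adjusted p = 0.0024 with the block, 0.407 without). Among the other JAK genes Tyk2 rose at 6 h (0.35 ± 0.0576, adjusted p = 0.000493 and 0.0823), whereas Jak1 (-0.07, adjusted p = 0.321) and Jak3 (0.06, adjusted p = 0.723) did not pass. Stat2, a mediator of type I interferon signalling, had 21.9, 18.0 and 19.7 CPM at 0 h and 44.7, 34.4 and 36.6 CPM at 6 h, without overlap. Its log2 fold change was 0.95 ± 0.0571, and it was the only other STAT gene called in both fits (adjusted p = 1.46e-07 and 0.0161). Stat5a, the antisense neighbour of Stat3, rose by 0.43 ± 0.125 on the log2 scale (adjusted p = 0.0167 and 0.581) from 2.11 ± 0.52 CPM at 0 h. Stat5b (0.01, adjusted p = 0.946) and Stat6 (0.30, adjusted p = 0.477) did not pass.

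Of the 6 other SOCS genes 2 were lower at 6 h against 0 h and 0 higher, where 17.5% of all tested genes were called lower and 17.4% higher. At 1 h 2 were lower and 0 higher, where 2.14% of all tested genes were called lower and 1.36% higher. Socs5, a SOCS gene linked to EGF receptor signalling, fell from 113.6, 79.98 and 56.0 CPM at 0 h to 70.0, 54.8 and 41.0 CPM at 6 h (log2 fold change -0.57 ± 0.0538, adjusted p = 6.6e-06 with the block, 0.388 without). It was already lower at 1 h (-0.24 ± 0.0536, adjusted p = 0.0259), as was Socs4 (-0.28 ± 0.056, adjusted p = 0.0143), which at 6 h was at -0.34 ± 0.0558 (adjusted p = 0.00044). Without the block none of these 1 h calls held (adjusted p = 1.0 for Socs5 and 0.926 for Socs4), nor did that of Socs4 at 6 h (0.0754). Cish, a STAT5 target whose window holds TTCNNNGAA at base 1 and base 12 of the transcript, did not pass (-0.21, adjusted p = 0.256), and neither did Socs1 (0.21, adjusted p = 0.635), at 0.293 ± 0.0909 CPM at 0 h.

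Among 10 modulators of the pathway 3 were lower at 6 h against 0 h and 0 higher, where 17.5% of all tested genes were called lower and 17.4% higher. These were Adam10, a protease that sheds receptors from the cell surface (-0.28 ± 0.0495, adjusted p = 0.000743), Pias2, an inhibitor of STAT activity (-0.27 ± 0.0455, adjusted p = 0.000491), and Ptpn11, the phosphatase SHP2 that binds gp130 (-0.21 ± 0.0468, adjusted p = 0.00344). None of them was called without the block (adjusted p = 0.161, 0.221 and 0.108).

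Genes known as STAT3 targets moved in both directions. Of 19 tested, 2 were higher and 1 lower at 1 h, and 3 were higher and 11 lower at 6 h against 0 h. At 1 h these are 10.5% higher and 5.26% lower, beside 1.36% and 2.14% of all tested genes, and at 6 h 15.8% higher and 57.9% lower, beside 17.4% and 17.5%. Without the block 0 were higher and 1 lower at 6 h against 0 h. Pim3, a survival kinase, had 17.3, 9.31 and 20.2 CPM at 0 h, 52.2, 35.0 and 66.6 CPM at 1 h and 25.0, 17.7 and 25.0 CPM at 6 h. It rose 3.32-fold at 1 h (log2 fold change 1.73 ± 0.0947, adjusted p = 6.05e-07 with the block, 0.324 without). The transcriptional repressor Bcl6, with 3 TTCNNNGAA matches in 1 of its promoter windows and 1 in another, rose at 6 h from 9.3 ± 2.48 to 20.3 ± 3.42 CPM (1.14 ± 0.0924, adjusted p = 1.58e-06 and 0.0565). TTCNNNGAA was also found once each in the windows of 2 targets that were lower at 6 h against 0 h, the adhesion molecule gene Icam1 (-1.09 ± 0.289, adjusted p = 0.0104 with the block, 0.44 without) and the astrocyte filament gene Gfap (-0.63 ± 0.202, adjusted p = 0.0282 and 0.61). Both were low, with 0.73 ± 0.461 CPM for Icam1 and 1.31 ± 0.292 CPM for Gfap at 0 h, and their 6 h and 0 h libraries overlapped. Of 27025 genes, counted with 1 window each, 8.47% held TTCNNNGAA, and a link of these matches to the differences was not tested.

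The chemokine gene Ccl2 had 5.95, 3.68 and 6.42 CPM at 0 h, 8.28, 4.59 and 10.9 CPM at 1 h and 1.51, 1.07 and 2.28 CPM at 6 h. It was higher at 1 h (0.53 ± 0.106, adjusted p = 0.0147 with the block, 1.0 without) and lower at 6 h (-1.74 ± 0.12, adjusted p = 4.24e-07 and 0.0632), as was Lif. The growth regulator Myc was lower at 1 h (-0.53 ± 0.0795, adjusted p = 0.00241 and 0.775), and the AP-1 subunit Junb was lower at 6 h (-0.94 ± 0.197, adjusted p = 0.0024 and 0.237). Mcl1, a survival gene named here after its values were seen, was the only target lower at 6 h against 0 h in both fits (-0.49 ± 0.0481, adjusted p = 8.1e-06 and 0.0249). Many of these genes answer to other pathways as well.

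**Figure D4:**
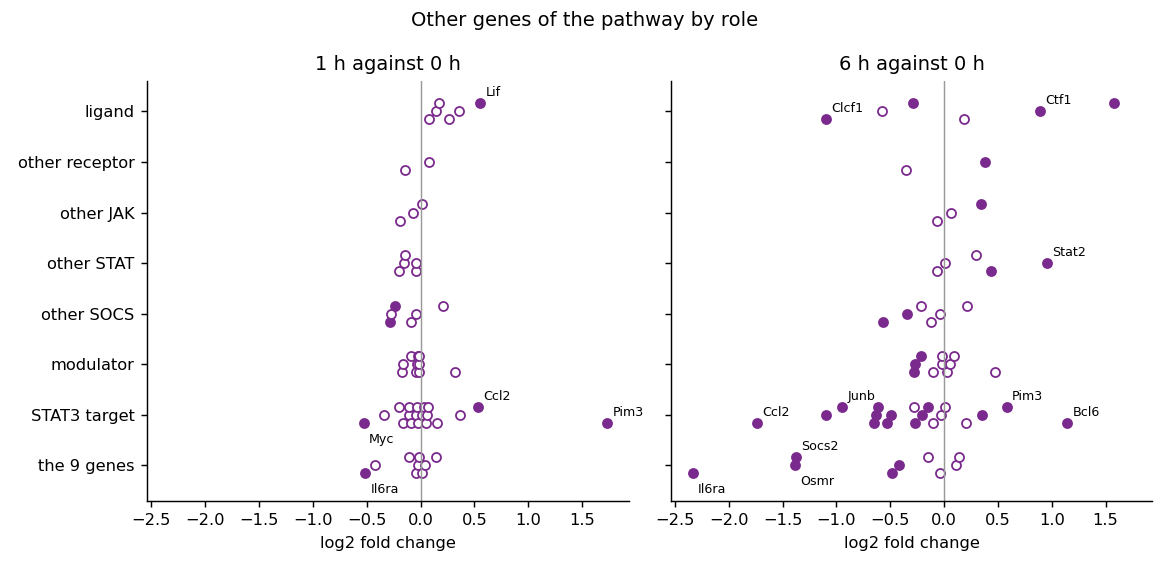
Log2 fold change of the 51 other pathway genes and of the 9 genes described here, by role, at 1 h (left) and 6 h (right) against 0 h, from edgeR with the block. Each point is 1 gene, filled where the adjusted p was under 0.05. At 6 h the 9 genes reach from -2.33 for Il6ra to 0.14 for Cntfr, STAT3 targets lie on both sides of 0, and the called STAT and JAK genes other than Stat3 are higher.

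Markers of other cell types that such cultures could hold were at these levels beside the fall of Il6ra. All 8 microglial markers were under a mean of 1 CPM, and Csf1r, the only one that could be tested, had at most 0.219 CPM and was lower at 6 h (adjusted p = 0.0397 with the block, 0.141 without). Of 6 endothelial markers 5 were under 1 CPM, and the list summed to between 2.2 and 4.57 CPM at 0 h and between 1.55 and 3.08 CPM at 6 h. The summed level of 5 astrocyte markers was between 196 and 254 CPM at 0 h and between 236 and 296 CPM at 6 h, that of 5 neuroblast markers between 184 and 233 and between 186 and 251 CPM, and that of 6 oligodendrocyte lineage markers between 559 and 715 and between 727 and 866 CPM. The neuroblast and oligodendrocyte lineage sums were mostly a single gene each. At 0 h Sox11 had a mean of 197.2 CPM and the next neuroblast marker, Tubb3, 3.76 CPM, while Dcx, Stmn2 and Dlx2 had 1.25 CPM or less. Olig2 had a mean of 633.2 CPM at 0 h and the next of its list, Pdgfra, 11.1 CPM. The 4 mural markers moved in opposite directions, which their sum, between 125 and 161 CPM at 0 h and between 197 and 225 CPM at 6 h, does not show. At 6 h against 0 h Acta2 was 2.08-fold lower, from 77.2 ± 25.5 to 36.6 ± 10.2 CPM (adjusted p = 4.13e-08 with the block, 0.133 without), and Rgs5 was 1.70-fold lower, from 1.99 ± 1.54 to 1.18 ± 0.992 CPM (adjusted p = 0.0043 and 0.70). Cspg4, which oligodendrocyte precursors also express, was 2.65-fold higher, from 65.9 ± 10.2 to 174.3 ± 19.9 CPM (adjusted p = 1.06e-08 and 0.00672), and made up the rise of the sum. Pdgfrb was 12.8-fold higher, from 0.165 ± 0.192 to 2.12 ± 2.47 CPM (adjusted p = 2.31e-07 and 0.175), with 4.97 CPM in replicate 3 and 0.76 and 0.627 CPM in replicates 1 and 2 at 6 h. Of the other lists, 4 of 6 oligodendrocyte lineage markers, 1 of 4 tested astrocyte markers and 1 of 5 neuroblast markers were called higher at 6 h against 0 h and 0 lower. These are 66.7%, 25% and 20%, where 17.4% of all tested genes were called higher and 17.5% lower. Without the block 0 markers of these lists were called. Ependymal markers summed to between 44.7 and 86 CPM at 0 h and between 36.7 and 59 CPM at 6 h, and 1 of the 2 that could be tested was lower, as was 1 of 3 endothelial markers. The ependymal sum was mostly Foxj1, with a mean of 61.3 CPM at 0 h, where the next of that list, Dnah5, had 0.204 CPM. The part of cell composition in the differences of the 9 genes was not tested.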

How the data were processed

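The authors extracted total RNA, prepared stranded mRNA libraries, aligned paired-end reads to the mouse assembly mm10 (GRCm38), counted the reads on Ensembl genes, and deposited raw counts without normalisation. The submitters' processing notes name STAR 2.5.3a, FastQC and DESeq2 1.22.1. The strand setting of the counting is not given in the sources used here.

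Here the counts were fitted in R 4.3.3 with edgeR 4.0.16 (glmQLFit and glmQLFTest). Genes were kept with filterByExpr (minimum count 10, minimum total 15), libraries were scaled with TMM, and 1 fit over the 9 libraries had replicate number and time point as factors. P-values were adjusted by the Benjamini-Hochberg method over all 18858 tested genes, with a threshold of 0.05. SEs were derived from the F statistic. Coordinates and exon lengths came from GENCODE M21, which held 48144 of the 48526 identifiers, and promoter sequences from RefSeq (GRCm38.p6). Python 3.11.15, pandas 2.3.3, numpy 2.4.6 and matplotlib 3.10.9 were used for tables and figures.

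The replicate numbers come from the labels. After the time point means had been subtracted, log2 CPM correlated at 0.733 to 0.8 in 9 pairs of libraries with the same number, and the numbers were therefore taken to pair the libraries. In the 18 pairs whose numbers differed the values were -0.462 to -0.314. The subtraction forces negative values there when those within numbers are positive, so the second range adds nothing to the first. The common biological coefficient of variation was 0.0627 with the block and 0.277 without it. P-values of the fit with the block measure the spread left after the level of each replicate number is removed. Those of the fit without it measure the whole spread between libraries of a time point. Either spread may be in part technical. No pair of libraries agreed within sampling noise (chi-square per degree of freedom of at least 12.5).

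The genes, the lists of other pathway genes and markers, and the tests were chosen with earlier results of these data known. All 9 genes are named. Of the other pathway genes, up to 3 per role and comparison are named, those past the threshold with the largest absolute log2 fold change among genes that averaged 1 CPM or more and moved one way in all 3 replicates. Icam1, Gfap and Mcl1 are named outside this rule. Icam1, which averaged under 1 CPM, and Gfap are given for the TTCNNNGAA match in their windows, and Mcl1 was added after its values were seen. Ligands, JAK, STAT and SOCS genes that did not pass may also be named, and some genes of the lists are not reported here. The fits were tested on simulated data. The alternatives were DESeq2 1.42.0 with and without the block, edgeR without the block, RLE scaling, library totals, no filter, a floor of 1 CPM on the mean, the 6 libraries of a comparison alone, a threshold of 0.01, removal of GC and length trends (splines with 4 degrees of freedom, 99.6% of tested genes), and leaving out each library.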

Additional observations from a re-analysis of the deposited data

How the results depend on the processing

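The choice that mattered most was the replicate block. Without it, edgeR called 0, 1 and 1 of the 9 genes at 1 h against 0 h, 6 h against 0 h and 6 h against 1 h, in place of 1, 5 and 5, and 0, 2 and 3 of the other pathway genes in place of 6, 27 and 24. DESeq2 without the replicate block called 0, 1 and 1 of the 9 genes and 1, 11 and 10 of the other pathway genes, and DESeq2 with it called the same of the 9 genes as edgeR. Over all genes, edgeR with the block called 661, 6581 and 6710 genes, and without it 8, 456 and 404. At 1 h, no filter on low counts gave 2 of the 9 genes, as did the 6 libraries alone, and an adjusted p under 0.01 gave 0 of the 9 genes and 3 of the others. Leaving out each library gave between 0 and 1 of the 9 genes at 1 h (0 without any 1 of the 6 libraries compared) and between 5 and 6 in both other comparisons. For the others it gave between 2 and 7 (2 without replicate 3 at 0 h, 3 without replicate 1 at 1 h), 22 and 28, and 20 and 25. Differences of Il6st and Lifr that had missed the threshold at 6 h passed it in some fits: for Il6st against 0 h with GC and length trends removed (adjusted p = 0.0242) and with the 6 libraries alone (0.00834), and against 1 h without replicate 3 at 1 h (0.0177); for Lifr against 0 h with GC and length trends removed (0.0434), and against 1 h with library totals (0.0447), without a filter (0.0474) and without replicate 2 at 1 h (0.0241).

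The sign changed only in log2 fold changes that had not passed the test. At 1 h, removal of GC and length trends gave 0.0146 for Lifr and 0.0113 for Jak2, and library totals gave -3.85e-05 for Stat3. At 6 h against 1 h, Cntfr was at 0.0327 with library totals, 0.00738 with the 1 CPM floor and 0.00704 without a filter, and Jak2 at 0.0199 with library totals. With 1 library left out, values at 1 h ran from -0.124 to 0.0508 for Lifr, from -0.00627 to 0.0407 for Stat3, from -0.0740 to 0.145 for Socs2 and from -0.0779 to 0.0341 for Socs3, and at 6 h against 1 h from -0.131 to 0.0161 for Il6st and from -0.0564 to 0.0340 for Cntfr. The causes were not tested. With 68 to 106 counts of Il6ra per library at 6 h, depth limits the precision of its lowest levels.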
